A study of Mus musculus with 12 samples.

Results

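Acetylcholine is made, packed, broken down and sensed by a small group of gene products, and the levels of 10 of these genes were followed in whole brain of BALB/c mice. Chat, Slc5a7, Slc18a3, Ache, Chrm1, Chrm2, Chrm3, Chrm4, Chrna4 and Chrna7 were chosen by name, as every probe that the scan files label with one of these symbols, and they are 10 of 26495 genes tested. They have 13 probes, and all 13 were well above background on all 12 arrays. Chrna3, Chrna5 and Chrnb4 were left out because they lie near Il18, the knocked-out gene. The study set untreated wild-type mice beside untreated interleukin-18 knockout mice of the same strain, at 6 weeks and at 12 weeks of age, with 3 mice in each of the 4 groups, which the labels call biological replicates. Both knockout groups lack interleukin-18, a cytokine of the interleukin-1 family, and how the gene was disrupted is not given in the sources used here. Total RNA of each brain was labelled with Cy3 from an oligo-dT primer and hybridised to a one-colour Agilent array.

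As background, choline acetyltransferase (Chat) makes acetylcholine from choline and acetyl-CoA in the nerve ending, Slc5a7 carries choline back into that ending, and Slc18a3 loads the finished transmitter into synaptic vesicles. Acetylcholinesterase (Ache) destroys it in the synaptic cleft. Muscarinic receptors act through G proteins, Chrm1 and Chrm3 through Gq and Chrm2 and Chrm4 through Gi, and nicotinic receptors such as those built from Chrna4 or Chrna7 are ion channels. The neurons that make acetylcholine are few and lie in the basal forebrain, the striatum, the brainstem and the motor columns, while the receptors are spread over many other neurons. In whole-brain RNA, fewer cells of a type and less RNA per cell cannot be told apart.

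Levels are given as log2 signal relative to the array's 75th percentile of signal, so that 0 is the signal below which 75% of the spots of that array lie. They can be compared between arrays for one probe, not between probes. Il18 itself ran from 1.51 to 1.93 in the 6 wild-type brains and from -0.32 to -0.17 in the 6 knockout brains, a difference of -1.84 ± 0.11 (SE) at 6 weeks and of -1.94 ± 0.11 at 12 weeks, with 3 mice a group and adjusted p-values of 2.3e-05 and 1.2e-05 in limma. The Il18 probe stayed well above background in all 6 knockout brains. The 12 arrays came from 2 slides. Slide 1 held 8 arrays, all 6 of the wild type and replicates 1 and 2 of the 6-week knockout, and slide 2 held 4, replicate 3 of the 6-week knockout and all 3 of the 12-week knockout. At 12 weeks genotype and slide therefore change together, and only the 6-week knockout lies on both slides. Slide column 2 held the 3 arrays of the 6-week wild type and replicate 1 of the 12-week wild type. All other arrays were in column 1, so at 6 weeks genotype and slide column change together. Age in the wild type goes with column in part. The 75th percentile signal was 890.1 to 1188 over the arrays, and 65.9% to 76.2% of spots were well above background. Replicates 2 and 3 of the 12-week wild type had the highest shares, 76.2% and 74.0%, and the other arrays had 65.9% to 69.4%. Of all genes tested, 27.8% had the 4 arrays of slide 2 wholly above or wholly below the 8 of slide 1.

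**Figure D1:**
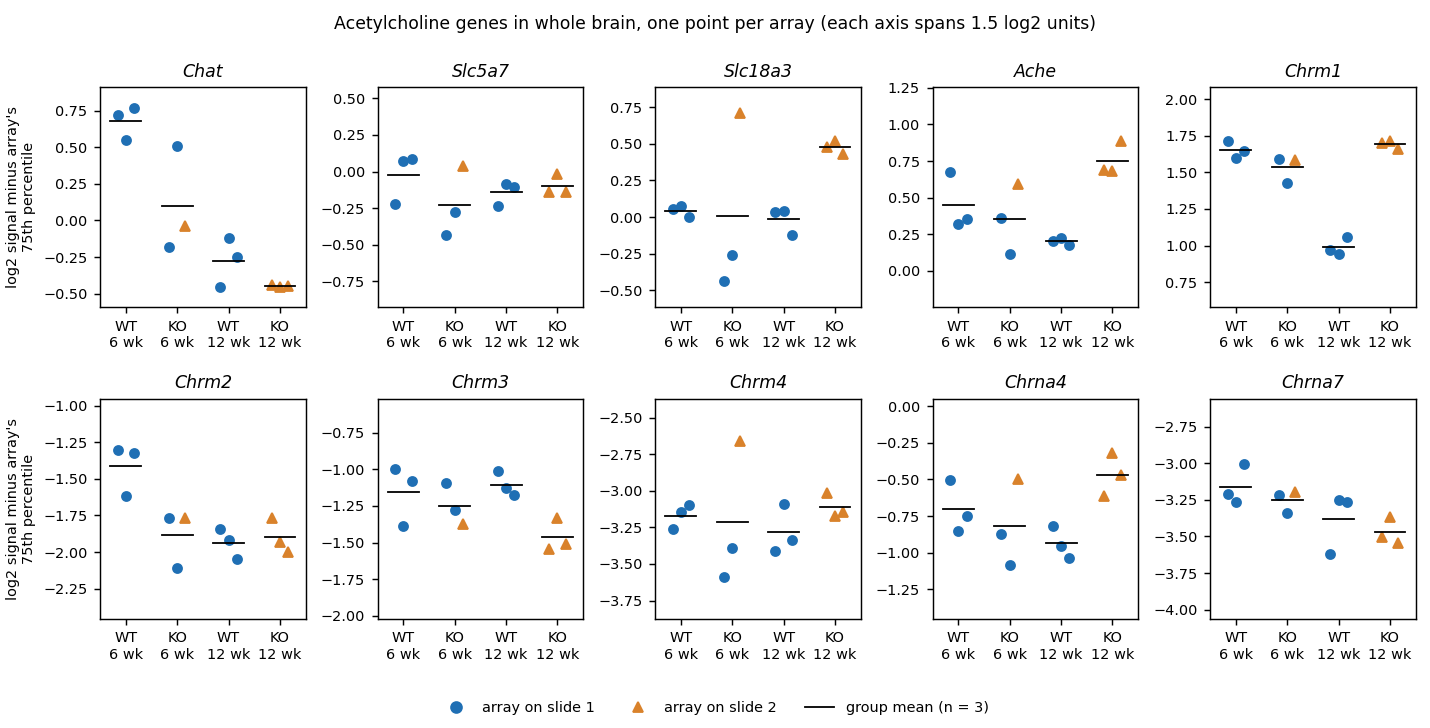
Log2 signal relative to the array's 75th percentile (vertical axis) for the 10 genes in the 4 groups (horizontal axis), with one point per array, blue circles for slide 1, orange triangles for slide 2, and a black line at the mean of 3 mice. Chrm1 is low in the 12-week wild type alone, Chat is highest in the 6-week wild type, and Slc18a3 is higher on slide 2 than on slide 1.

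Knockout and wild type were first compared at 6 weeks. None of the 10 genes passed an adjusted p of 0.05 in limma (Benjamini-Hochberg over all genes tested), where 0.925% of all genes did, and 2 of the 10 had an unadjusted p under 0.05 against 18.5% of all genes. All 10 values were nonetheless below 0, from -0.58 for Chat to -0.04 for Slc18a3, with a median of -0.10 against 0.04 over all genes. Genotype cannot be told apart from slide column in this comparison. In Chat, Chrm1 and Chrm2 all 3 knockout brains lay below all 3 wild-type brains, a separation in either direction that 23.7% of all genes had. At 12 weeks 4 of the 10 passed in limma, against 33.0% of all genes, which is near the background share. Ache, Chrm1 and Chrna4 were higher in the knockout (18.5% of all genes were) and Chrm3 was lower (14.5% were). Ache, Chrm1, Chrm3, Chrna4 and Slc18a3 had genotypes that did not overlap, as 52.3% of all genes had. When slide entered the fit as a block, none of the 10 passed in limma, against 0.113% of all genes, while Slc18a3, Chrm1 and Chrm4 had an unadjusted p under 0.05, as 8.01% of all genes had.

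With age, 2 of the 10 passed in wild-type brain, against 0.638% of all genes. Both of them, Chat and Chrm1, fell from 6 to 12 weeks, as 0.208% of all genes did. The same 2 passed with slide in the fit, against 1.49%. All wild-type arrays were on slide 1, so a slide block cannot change these differences, only their error. For 4 of the 10, Chat, Ache, Chrm1 and Chrm2, the 2 ages did not overlap in the wild type, as for 24.7% of all genes. The values of 9 of the 10 were below 0, with a median of -0.23 against 0.00 over all genes. In knockout brain none of the 10 passed in limma, against 2.01% of all genes, although 4 had an unadjusted p under 0.05, against 26.8%. The test of whether the knockout effect differed between the 2 ages was passed by 1 gene, Chrm1, against 0.189% of all genes, and the positive direction of Chrm1 was shared by 0.0453%. Once slide was in the fit the count in limma became 0, against 0.0717% of all genes. Chrm1 then had an adjusted p of 0.0545 and was the only one of the 10 with an unadjusted p under 0.05, which 9.24% of all genes had. The comparisons share their groups: the 6-week wild type enters both the first knockout comparison and the wild-type age comparison, so the low values that they have in common are not independent of each other.

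**Figure D2:**
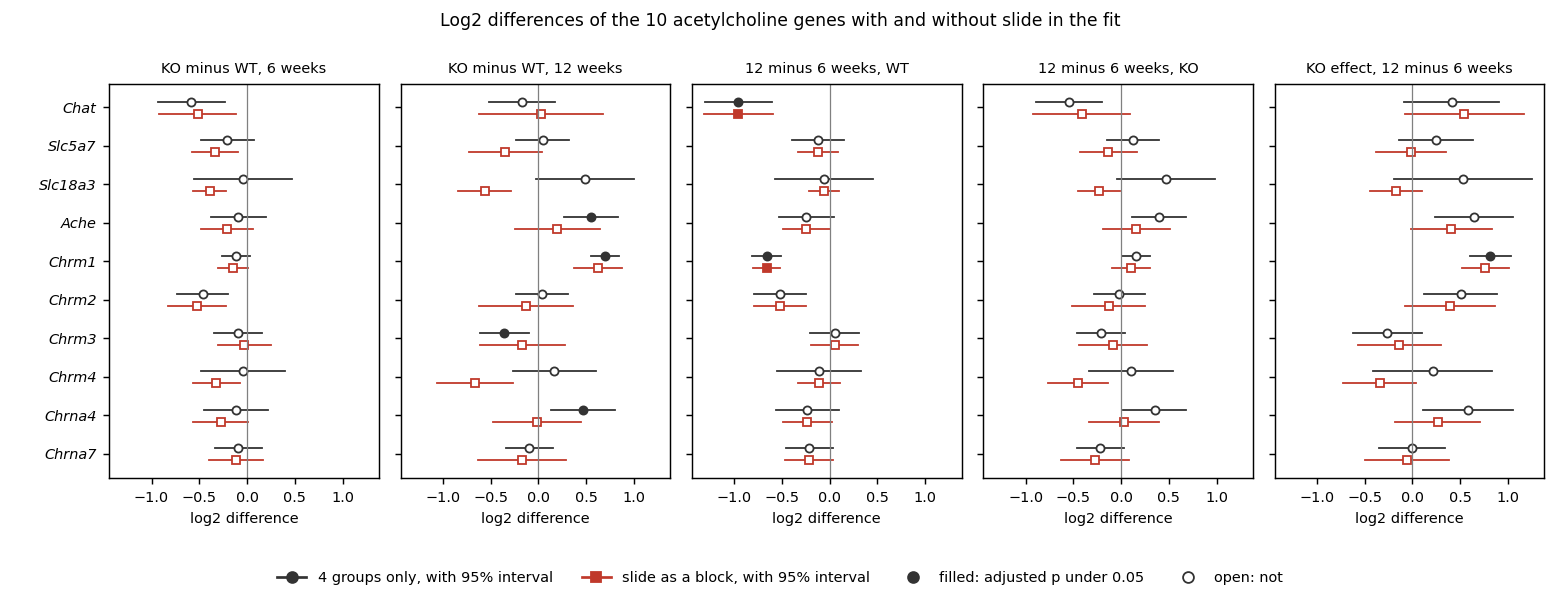
Log2 differences (horizontal axis) of the 10 genes (rows) in the 5 comparisons (panels), with 95% confidence intervals, from the fit on the 4 groups (grey circles) and from the fit with slide as a block (red squares), filled where the adjusted p was under 0.05. The fall of Chat and Chrm1 with age in the wild type is the same in both fits, while none of the 4 calls at 12 weeks stays filled with slide as a block.

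Chat, which makes the transmitter, had its highest levels in the young wild type. Its levels were 0.72, 0.55 and 0.77 in the 3 wild-type brains at 6 weeks and -0.45, -0.12 and -0.25 at 12 weeks. In the knockout they were -0.18, 0.51 and -0.03 at 6 weeks and -0.44, -0.45 and -0.45 at 12 weeks. The order of the group means ran from the 6-week wild type (0.68 ± 0.12, SD, n = 3) through the 6-week knockout (0.10 ± 0.36) and the 12-week wild type (-0.28 ± 0.17) to the 12-week knockout (-0.45 ± 0.01). The 6-week knockout overlapped the 12-week wild type, which overlapped the 12-week knockout.

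In the wild type Chat fell by 0.96 on the log2 scale from 6 to 12 weeks (SE 0.16, 1.94-fold, limma adjusted p = 0.0288). All of the 6-week wild-type arrays lay above all of the 12-week ones, and both groups were on slide 1. The call was kept in 8 of 13 settings and in 4 of 12 fits that each left out 1 array. Without any one of the 6 wild-type arrays or of 12-week knockout replicates 1 and 3 the adjusted p rose to between 0.0523 and 0.0986. In the knockout the same difference was -0.54 ± 0.16, with an adjusted p of 0.0782. At 6 weeks the knockout minus wild-type difference of Chat was -0.58 ± 0.16 with an adjusted p of 0.109. It became -0.79 with an adjusted p of 0.0181 without replicate 2 of the 6-week knockout, the array with 0.51, and at 12 weeks it was -0.17 ± 0.16.

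The single probe for Chat lies on chromosome 14 at chr14:33221421-33221480 on the minus strand of mm9, the build named in the scan files. Its 60 bases end in a run of GAAA repeats, and that run is shown because Chat's level over the arrays followed that of other probes with the same repeat. Below are bases 31 to 60 of the Chat probe and 30 bases around the repeat in 3 others, 5′ to 3′, with the repeated GAAA units in capitals. The Usp8 probe is at chr2:126584484-126584543, plus strand, the Papola probe at chr12:107075105-107075164, plus strand, and the Siglech probe at chr7:63034088-63034147, plus strand.
Chat: gctattcaGAAAGAAAGAAAGAAAGAAAga
Usp8: tatcaaaaGAAAGAAAGAAAGAAAacagcc
Papola: aaacaaagGAAAGAAAGAAAGAAAggaaaa
Siglech: tctgtctcaaaGAAAGAAAGAAAGAAAgaa

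Besides Chat, 5 other probes that passed the background filter hold GAAA 4 times in a row as read 5′ to 3′ (the letters GAAAGAAAGAAAGAAA, probe strand only). From 6 to 12 weeks in the wild type, 4 of the 5 had lower values: -1.33 ± 0.23 for AI790442, -1.29 ± 0.28 for Usp8, a deubiquitinating enzyme, -1.09 ± 0.14 for Papola, a poly(A) polymerase, and -0.92 ± 0.16 for Rgs7bp, which anchors G protein regulators. The adjusted p over all kept probes was 0.0406, 0.0856, 0.0148 and 0.0412 in that order, and the fifth, Siglech, a receptor of microglia, had 0.11 ± 0.11. Of all kept probes, 0.142% were called lower in that comparison. For Rgs7bp, 2 other probes without the repeat gave -0.28 and -0.17, with adjusted p-values of 0.217 and 0.42. For Siglech, 2 other probes without the repeat gave -0.44 and -0.25, below the value of its repeat probe, with adjusted p-values of 0.429 and 0.268.

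The gene whose level was most like that of Chat was one of these 5. Over the 12 arrays, with each gene centred on its mean, Papola had the smallest mean absolute difference from Chat of 26446 genes, at 0.10 log2 units, followed by AI314604, a chromosome 3 transcript without a symbol, BE654891 and Spatc1, none of which holds the repeat. Slc5a7 and Slc18a3, which mark the same neurons as Chat, had ranks 8905 and 24240. Slc18a3 lies inside the Chat locus, as textbook background, and its probe is at chr14:33275627-33275686 on the same strand.

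Probes with long runs of A and G alone had lower medians in the wild-type age comparison. The longest run of A and G in the Chat probe is 23 bases. The median wild-type age difference was 0.01 over 33944 probes with runs of 0 to 9 bases, -0.15 over 70 probes with runs of 20 to 24 bases and -0.58 over 108 probes with runs of 25 or more. At 6 weeks the knockout minus wild-type medians of the same classes were 0.03, -0.17 and -0.47, and at 12 weeks they were 0.00, -0.23 and 0.00, with no shift in the class of the longest runs. The other 12 probes of the 10 genes have runs of 3 to 11 bases. No second Chat probe was on the array, and the part of the repeat in Chat's values was not tested. These probe classes were set up after Chat's values had been seen.

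**Figure D3:**
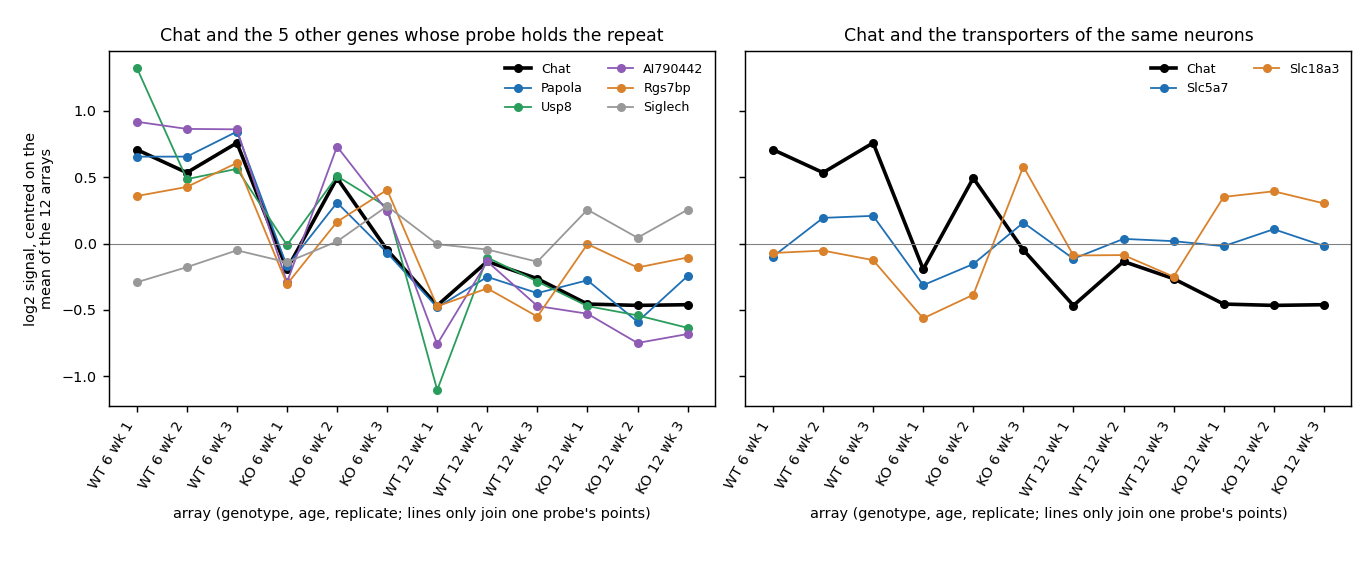
Log2 signal centred on each probe's mean over the 12 arrays (vertical axis) for each array (horizontal axis, by genotype, age and replicate), for Chat with the 5 other genes whose probe holds the GAAA repeat (left) and with the 2 transporters of cholinergic neurons (right). Papola, Usp8, AI790442 and Rgs7bp go from above 0 in all 3 wild-type brains at 6 weeks to below 0 in all 3 at 12 weeks, as Chat does, and Siglech does not.

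Slc5a7, the choline transporter that limits the supply of choline to the nerve ending, passed no test. In wild type its levels were -0.22, 0.07 and 0.09 at 6 weeks and -0.24, -0.09 and -0.10 at 12 weeks. Knockout levels were -0.44, -0.28 and 0.03 at 6 weeks and -0.14, -0.01 and -0.14 at 12 weeks. The groups overlapped in every comparison of Slc5a7. Its differences ran from -0.20 ± 0.12 for the knockout at 6 weeks to 0.13 ± 0.12 for age in the knockout, and the wild-type age difference was -0.12 with a 95% interval from -0.40 to 0.15. The second, dimmer probe gave -0.23 ± 0.19 at 6 weeks and -0.24 ± 0.19 for age in the wild type, and neither passed.

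Slc18a3, the vesicular acetylcholine transporter, was the single member whose 2 slides did not overlap. On slide 1 its levels were 0.06, 0.07 and 0.00 in the 6-week wild type, 0.04, 0.04 and -0.12 in the 12-week wild type, and -0.44 and -0.26 in replicates 1 and 2 of the 6-week knockout. On slide 2 they were 0.71 in replicate 3 of the 6-week knockout and 0.48, 0.52 and 0.43 in the 12-week knockout. The 3 mice of the 6-week knockout thus had the widest spread of any group of this gene (SD 0.62), with a gap of 1.05 between the slide 2 array and the mean of the slide 1 arrays.

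The knockout minus wild-type difference of Slc18a3 at 12 weeks was 0.49 ± 0.23 (adjusted p = 0.123). When slide entered the fit as a block it was -0.56 ± 0.12 (adjusted p = 0.30). The block rests on the 3 arrays of the 6-week knockout, 1 of them on slide 2. With only the 2 groups compared in the fit, the difference of 0.49 had an adjusted p of 0.00529, where 36.2% of all genes passed. Without replicate 3 of the 6-week knockout it had 0.000798, where 39.5% passed. In both fits the 12-week genotypes were on different slides. Within slide 1, replicates 1 and 2 of the 6-week knockout averaged -0.39 relative to the 6-week wild type. In the wild type, age made a difference of -0.06 (95% interval -0.57 to 0.45).

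Replicate 3 of the 6-week knockout was also apart in other genes. It was above the mean of its 2 group mates by 0.83 for Chrm4, 0.48 for Chrna4, 0.39 for Slc5a7 and 0.35 for Ache, and it differed from them by 0.20 or less for the other 5 genes. Without it, calls rose over the whole array: for age in the knockout from 2.01% to 28.0% of all genes, and for the difference of the knockout effect between ages from 0.189% to 17.8%. In that fit 5 of the 10 genes passed for age in the knockout, with Slc18a3 (0.82), Ache (0.52), Chrm4 (0.38) and Chrna4 (0.51) higher and Chat (-0.61) lower at 12 weeks. The difference between ages also passed for 5, adding Slc18a3 (0.88), Ache (0.76), Chrm4 (0.49) and Chrna4 (0.75) to Chrm1. In that fit the 6-week and the 12-week knockout share no slide.

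Markers of hindbrain and spinal cord differed between the same arrays. The summed signal of 9 such genes, mostly Hox genes that are active in the posterior brainstem and cord, was 1.42, 2.15 and 2.60 times the 75th percentile in the 6-week wild type, and 1.07, 0.56 and 2.46 times in the 6-week knockout. At 12 weeks it was 1.58, 1.69 and 0.55 times in the wild type and 2.19, 2.55 and 2.20 times in the knockout. In replicate 3 of the 6-week knockout, where Slc18a3 stood at 0.71, the sum was 2.46, and in its 2 group mates, where Slc18a3 was lowest of all arrays, it was 1.07 and 0.56.

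The 3 highest arrays of Slc5a7 on both of its probes, replicates 2 and 3 of the 6-week wild type and replicate 3 of the 6-week knockout, had sums of 2.15, 2.60 and 2.46, and the 2 lowest on its brighter probe, replicates 1 and 2 of the 6-week knockout, had 1.07 and 0.56. Other arrays did not follow that order: replicate 3 of the 12-week wild type had the lowest sum, 0.55, with Slc5a7 at -0.10, and the 12-week knockout had sums of 2.19, 2.55 and 2.20 with Slc5a7 at -0.14, -0.01 and -0.14. All 9 marker genes had values below 0 for the knockout at 6 weeks (median -0.72) and for age in the wild type (median -0.58), and above 0 for the knockout at 12 weeks (median 0.71), and none of the 9 passed. The part of how much hindbrain and cord RNA a sample held in the values of the 10 genes was not tested.

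**Figure D4:**
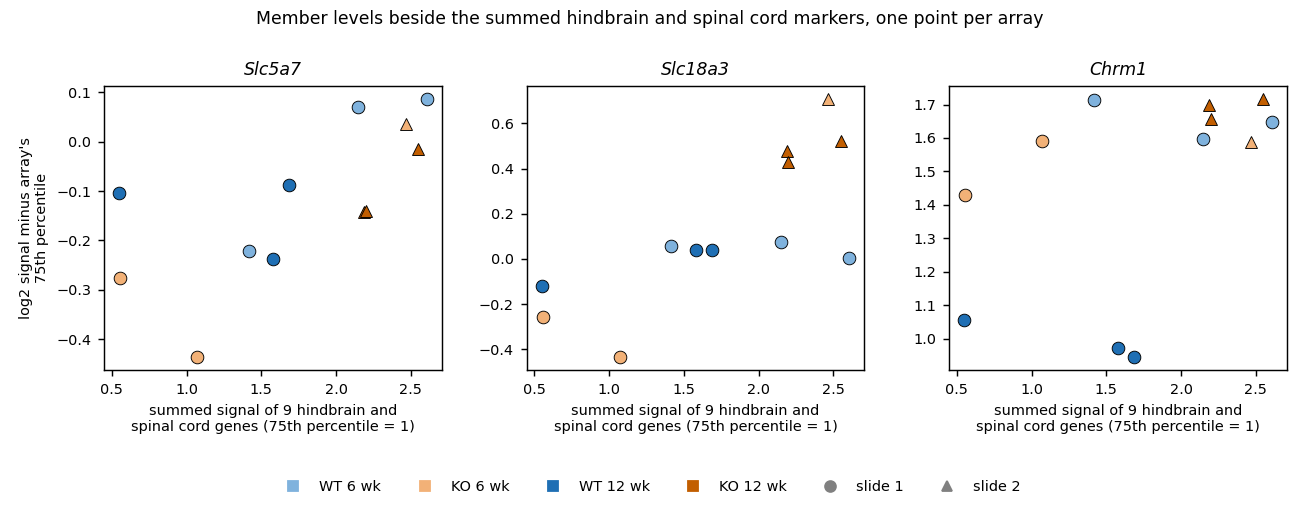
Log2 signal relative to the 75th percentile (vertical axis) of Slc5a7, Slc18a3 and Chrm1 against the summed linear signal of 9 hindbrain and spinal cord genes in units of the array's 75th percentile (horizontal axis), with one point per array, coloured by group and shaped by slide. Slc5a7 and Slc18a3 are lowest in 2 arrays of the 6-week knockout with low sums, while the 3 low Chrm1 arrays, all 12-week wild type, have sums of 0.55, 1.58 and 1.69.

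Ache, which ends the signal by splitting acetylcholine, was higher in the 12-week knockout than in the 12-week wild type. Its brighter probe gave 0.68, 0.32 and 0.35 in the 6-week wild type and 0.36, 0.12 and 0.59 in the 6-week knockout. At 12 weeks it gave 0.20, 0.23 and 0.17 in the wild type and 0.69, 0.68 and 0.89 in the knockout. All 3 knockout brains at 12 weeks were above all 3 wild-type brains, by 0.55 ± 0.13 (1.47-fold, limma adjusted p = 0.0121). The difference was called in all 12 fits with 1 array left out, and with slide in the fit it was 0.20 ± 0.20 (adjusted p = 0.83).

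The second Ache probe, also on chromosome 5, passed at 12 weeks too. It lies at chr5:137735513-137735572 and the first at chr5:137733122-137733181, both on the plus strand. At 12 weeks it differed between the genotypes by 0.41 ± 0.11, with an adjusted p of 0.0182 over all kept probes, of which 31.5% passed. At 6 weeks the 2 probes both gave -0.09. With age the 2 probes gave -0.25 and -0.22 in the wild type and 0.40 and 0.28 in the knockout, and none of these 4 values passed.

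Chrm1, the Gq-coupled muscarinic receptor of cortex and hippocampus, was low in a single group, the 12-week wild type. Its brighter probe gave 1.71, 1.60 and 1.65 in the 6-week wild type and 0.97, 0.95 and 1.06 in the 12-week wild type. Knockout levels were 1.59, 1.43 and 1.59 at 6 weeks and 1.70, 1.72 and 1.66 at 12 weeks. The 3 brains of the 12-week wild type were below the other 9, whose values ran from 1.43 to 1.72. Such a low 12-week wild type was seen in 3.78% of all genes and in no other of the 10. The spread within groups was small (SD 0.06, smaller than in all but 5.6% of genes).

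Chrm1 fell with age in the wild type by 0.66 on the log2 scale (SE 0.07, 1.58-fold, limma adjusted p = 0.00296), and in the knockout the difference was 0.15 ± 0.07 (adjusted p = 0.173). At 12 weeks the knockout was higher by 0.70 ± 0.07 (1.62-fold, adjusted p = 0.00089), and at 6 weeks the difference was -0.12 ± 0.07 (adjusted p = 0.365). The knockout effect differed between the ages by 0.82 ± 0.10 (adjusted p = 0.0116). The wild-type age difference, the difference at 12 weeks and the difference between ages all use the 3 arrays of the 12-week wild type.

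The wild-type fall of Chrm1 was called in 13 of 13 settings and in 12 of 12 fits with 1 array left out, with adjusted p-values of up to 0.0497. Both wild-type groups were on slide 1. Replicate 1 of the 12-week wild type was in the second column of that slide, as the 6-week wild type was, and had 0.97, and replicates 2 and 3 were in the first column and had 0.95 and 1.06. Within the 6-week knockout the slide 2 array was 0.08 above the mean of the slide 1 arrays. With slide as a block the knockout difference at 12 weeks was 0.62 ± 0.11 with an adjusted p of 0.156, and the difference between the ages was 0.76 ± 0.11 with an adjusted p of 0.0545. Without replicate 2 of the 12-week wild type, or without replicate 1 of the 12-week knockout, the adjusted p of the difference between ages was 0.0651 and 0.0515.

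A second Chrm1 probe gave smaller differences that did not pass. The 2 probes lie on the plus strand of chromosome 19, the brighter at chr19:8758011-8758070 and the dimmer at chr19:8755342-8755401. The first 30 bases of each are shown because the result turns on which of them is read.
Chrm1, brighter probe: ctctcatatactaggccaacactctacaaa
Chrm1, dimmer probe: tggtaagggaagttcccaaagcctaatgaa

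The dimmer probe had a mean intensity of 88.3 to 118 in the 4 groups, against 2237 to 3440 for the brighter one. Its levels were -3.11, -3.28 and -3.26 in the 6-week wild type and -3.62, -3.35 and -3.40 in the 12-week wild type. The fall of 0.24 (SE 0.11, adjusted p = 0.348) ran in the same direction as that of the brighter probe. At 12 weeks the knockout minus wild-type difference on the dimmer probe was 0.01 (95% interval -0.22 to 0.25), against 0.70 on the brighter probe. The difference between ages on the dimmer probe was 0.17 ± 0.15. These values hold for the signal of that probe, and whether a probe this dim could show such a difference was not tested. With the mean of both probes in place of the brighter one, the wild-type fall of Chrm1 stayed called and the difference between the ages was 0.49 with an adjusted p of 0.0736. No genome annotation of this build was used, so which exon or UTR each probe reads is not given.

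**Figure D5:**
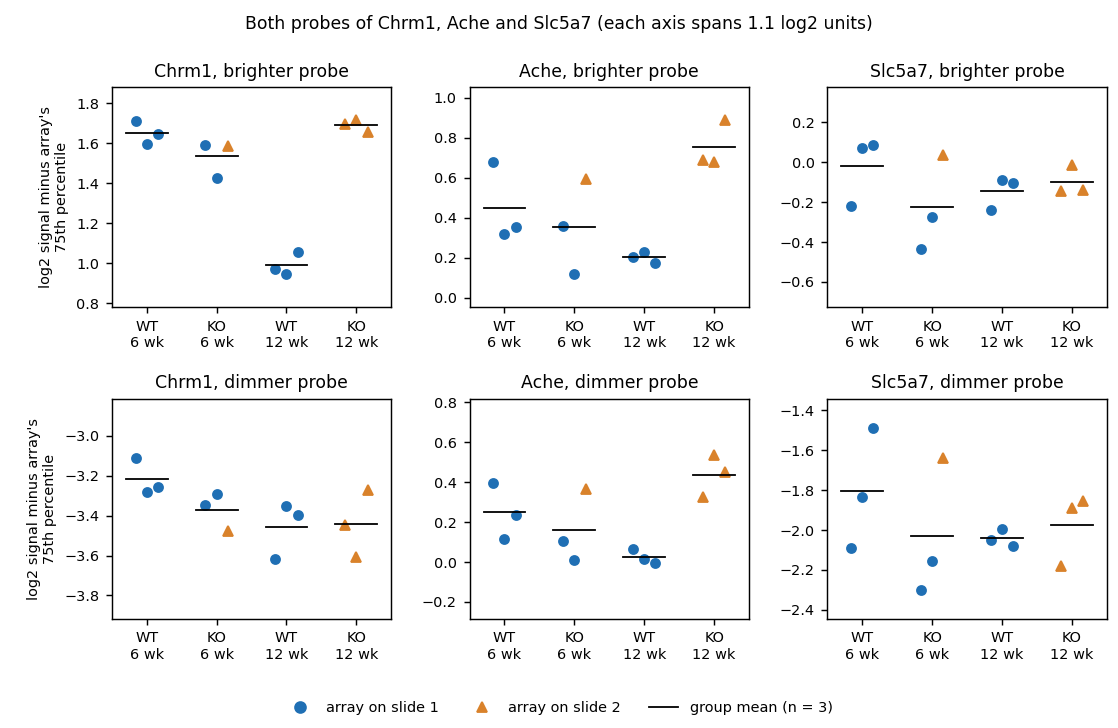
Log2 signal relative to the 75th percentile (vertical axis) in the 4 groups (horizontal axis) for the brighter probe (top) and the dimmer probe (bottom) of Chrm1, Ache and Slc5a7, with one point per array, shaped and coloured by slide, and a line at the mean of 3 mice. The low 12-week wild type of Chrm1 is on the brighter probe, while both probes of Ache are high in the 12-week knockout.

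In none of the other muscarinic receptors was the 12-week wild type below the other 9 arrays. Chrm2, the Gi-coupled receptor that also serves as an autoreceptor on cholinergic endings, gave -1.30, -1.62 and -1.32 in the 6-week wild type and -1.84, -1.92 and -2.05 in the 12-week wild type. In the knockout it gave -1.77, -2.11 and -1.77 at 6 weeks and -1.76, -1.93 and -2.00 at 12 weeks. The 3 brains of the 6-week wild type were above the other 9, as they were for Chat. How many of all genes had this pattern was not counted. Its differences were -0.47 ± 0.12 for the knockout at 6 weeks (adjusted p = 0.103) and -0.52 ± 0.12 for age in the wild type (adjusted p = 0.0865), and neither passed.

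Chrm3, the second Gq-coupled receptor of the set, was lower in the 12-week knockout. Wild-type levels were -1.0, -1.39 and -1.08 at 6 weeks and -1.01, -1.13 and -1.18 at 12 weeks. Knockout levels were -1.09, -1.28 and -1.38 at 6 weeks and -1.54, -1.33 and -1.51 at 12 weeks, the last group below the 12-week wild type in all 3 brains. The difference of -0.36 ± 0.11 (adjusted p = 0.0373) was called in 6 of 12 settings and became -0.17 ± 0.20 with slide as a block. Without any one of the 12-week wild-type arrays, or of replicates 1 and 3 of the 12-week knockout, its adjusted p was between 0.0594 and 0.112.

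Chrm4, the Gi-coupled receptor that is rich in the striatum, passed no test in the fit on all 12 arrays. Its probe was dim, with a mean intensity of 110 to 121 in the 4 groups. It gave -3.26, -3.15 and -3.10 in the 6-week wild type and -3.42, -3.09 and -3.34 in the 12-week wild type. In the knockout it gave -3.59, -3.39 and -2.66 at 6 weeks and -3.02, -3.17 and -3.15 at 12 weeks. The array with -2.66 was replicate 3 of the 6-week knockout, the highest of all 12. The knockout difference at 12 weeks was 0.17 ± 0.20, and with slide as a block it was -0.66 ± 0.18 with an adjusted p of 0.428.

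Of the nicotinic receptors, Chrna4 was higher and Chrna7 did not pass in the 12-week knockout. Chrna4, which with Chrnb2 forms most high-affinity nicotine binding sites of the brain, gave -0.50, -0.85 and -0.75 in the 6-week wild type and -0.82, -0.96 and -1.03 in the 12-week wild type. Knockout levels were -0.88, -1.08 and -0.50 at 6 weeks and -0.61, -0.32 and -0.47 at 12 weeks. At 12 weeks all 3 knockout brains were above all 3 wild-type brains, by 0.47 ± 0.15 (1.38-fold, adjusted p = 0.0366). The call was kept in 7 of 12 settings. With slide in the fit the difference was -0.01 ± 0.21, and replicate 3 of the 6-week knockout, on slide 2, lay within the range of the 12-week knockout. Without any one of the 12-week wild-type or 12-week knockout arrays its adjusted p was between 0.0507 and 0.112.

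Chrna7, whose product forms calcium-permeable channels by itself, has a probe spotted 10 times on the array. This probe was dim too, with a mean intensity of 87.0 to 124 in the 4 groups. It gave -3.21, -3.27 and -3.01 in the 6-week wild type and -3.62, -3.25 and -3.27 in the 12-week wild type. Knockout levels were -3.22, -3.34 and -3.20 at 6 weeks and -3.50, -3.37 and -3.55 at 12 weeks. The age differences were -0.22 ± 0.11 in both genotypes (adjusted p = 0.402 in wild type and 0.230 in knockout), and the knockout effect differed between ages by 0.00 (95% interval -0.35 to 0.34).

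Other genes of the same pathway were read from lists of related function. Of 12 further muscarinic and nicotinic receptor subunits, 5 passed the background filter (Chrna1, Chrna2, Chrna6, Chrna10 and Chrnb2) and none of the 5 was called in any comparison. Chrnb2, the partner of Chrna4, differed by 0.02 ± 0.11 between the genotypes at 12 weeks. Of 8 genes that specify or mark cholinergic neurons, all passed the background filter, which asks for 1 group only. None passed a test, with medians of 0.09 for the knockout at 6 weeks and -0.08 for age in the wild type. Gbx1 and Mnx1 were very dim, with means of -5.74 and -5.99 in the 6-week wild type.

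Among 13 genes of choline handling and receptor accessory proteins, 2 were higher in the knockout at 12 weeks, where 18.5% of all genes were, and none passed elsewhere. Lynx1, a membrane-bound modulator of nicotinic receptors, was higher by 0.64 ± 0.09 (adjusted p = 0.00428), and Chkb, a choline kinase, by 0.18 ± 0.06 (adjusted p = 0.0385). When slide was fitted too, they were 0.28 and 0.17 with adjusted p-values of 0.508 and 0.702.

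Of 12 genes that carry muscarinic and nicotinic signals inside the cell, 3 were higher and 3 lower in the knockout at 12 weeks, where 18.5% of all genes were called higher and 14.5% lower. Plcb1, the phospholipase that Gq-coupled receptors use, was lower by 0.87 on the log2 scale in the knockout (log2 difference -0.87 ± 0.14, adjusted p = 0.00477). Gnai1, a Gi subunit, differed by -0.31 ± 0.07, Rgs9, a striatal G protein regulator, by 0.35 ± 0.09, and Prkca, a protein kinase C, by 0.26 ± 0.07, with adjusted p-values of 0.00924, 0.0191 and 0.0192. With age in the knockout, Rgs4 alone of the 12 passed and was lower (-0.51 ± 0.09, adjusted p = 0.0350), against 2.01% of all genes called. None of these calls was kept with slide as a block, where Plcb1 had -0.42 with an adjusted p of 0.616.

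Marker lists of other cell types gave the setting for these values. Several lists had a higher summed linear signal on slide 2 than on slide 1 in every array. The brightest genes of a list weigh most in such a sum. Neuron markers summed to 244.8 to 287.9 times the 75th percentile on slide 2 and 208.1 to 228.9 times on slide 1, monoamine neuron markers to 12.8 to 15.4 and 9.16 to 11.5 times, astrocyte markers to 25.6 to 27.3 and 20.5 to 24.1 times, and microglia markers to 31.4 to 33.8 and 26.2 to 30.4 times. Oligodendrocyte markers (199.7 to 267.6 and 203 to 270.5 times) and choroid plexus markers (81.0 to 106.1 and 48.4 to 95.2 times) overlapped between the slides. The 3 skeletal muscle markers summed to 0.62 to 0.94 times over all arrays. The 5 cholinergic neuron markers, 3 of which are Chat, Slc5a7 and Slc18a3 themselves, summed to 4.22 to 4.43 times in the 6-week wild type, 2.99 to 4.38 in the 6-week knockout, 3.23 to 3.54 in the 12-week wild type and 3.63 to 3.98 in the 12-week knockout. The 8 striatal markers summed to 136.3 to 145.6 times in the 12-week knockout and 144.3 times in replicate 3 of the 6-week knockout, and to 105.3 to 124.5 times in the 8 arrays of slide 1. Single genes did not all go with the sums. For the knockout at 12 weeks, 5 of 5 neuron and 3 of 3 microglia markers had values above 0. The counts were 3 of 7 for monoamine neurons, 1 of 3 for astrocytes and 4 of 8 for striatal markers. The part of these markers in the values of Chrm4 and of the other genes was not tested.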

How the data were processed

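Whole-brain RNA of 12 mice in 4 groups was read on one-colour arrays. The submitters' processing notes name Agilent Feature Extraction, version 10.7.3.1, as the authors' software, and the deposited scan files give a processed intensity per spot (background-subtracted, per the file headers) with flags (a well-above-background mark and other marks) per the file headers, plus a deposited table of the same intensities, which differs by less than 0.5% per value. Its scale is linear.

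From these, log2 intensity minus the array's log2 75th percentile over all non-control spots was computed, outlier spots were left out, and repeated spots of a probe were averaged. Kept were the probes that some group showed well above background on each of its 3 arrays (37198 of 55681), and a gene was read from its brightest kept probe. Group means were fitted over all 12 arrays with limma 3.58.1 in R 4.3.3 and tested with Benjamini-Hochberg adjustment over 26495 genes, and a call is an adjusted p under 0.05. Errors beside differences are the fit's SE, and those beside group means are SDs. The number of arrays limits the precision. Probe-level results used the same fit over all kept probes. The procedure was tested on simulated data with independent noise and no slide effect, which checks the code and not the calls made here.

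The members and lists were chosen with earlier results of these data known. Named were all 10 genes in every array, Il18, up to 4 called genes of each list, and the 5 genes nearest to Chat with the ranks of Slc5a7 and Slc18a3; the repeat probes, Chrnb2 and the neighbours of Chrm1 were added after values had been seen. Alternatives were slide, slide column and replicate number as blocks, slide 1 alone, normexp with an offset of 50, quantile and median scaling, the deposited table, 2 other filters, other groups left out, the mean of a gene's probes, and each array left out. Same-numbered arrays did not deviate together (correlations of -0.20 to 0.11 over 18 pairs, and 2 of 12 arrays nearest to their own number), so numbers were not taken as pairs.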

Additional observations from a re-analysis of the deposited data

Results flagged for a closer look

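The knockout effect on Chrm1 differed between the ages: the knockout minus wild-type difference was -0.12 at 6 weeks and 0.70 at 12 weeks, and the test of their difference gave 0.82 (SE 0.10, limma adjusted p = 0.0116). With slide as a block it was 0.76 with an adjusted p of 0.0545, and genotype and slide change together at 12 weeks. The 3 brains of the 12-week wild type were below the other 9 arrays, and the dimmer Chrm1 probe gave 0.17 ± 0.15 for the same test. No test for a single outlying array was run in groups of 3, while each array was left out of the fit in turn.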

How the results depend on the processing

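Over the alternatives, 1156 of 1210 member values kept their direction, where called, and their side of the threshold, 41 lost a call, 12 gained one and 1 reversed: Chrna4 at 12 weeks was -0.0148 with slide as a fixed block. Another 59 uncalled values changed sign. The count of 4 members called at 12 weeks (33.0% of all genes) became 0 (0.113%) with slide as a fixed block, 1 (0.192%) with slide as a random block (correlation 0.36), 2 (22.4%) with the slide column as a block, 2 (18.6%) with no filter on dim probes, and 2 to 5 (19.6% to 39.5%) with 1 array left out. The count of 2 for age in the wild type became 1 with slide 1 alone, with the slide column, with no filter, with only the groups compared and with the replicate block, where Chat had an adjusted p of 0.0571, and 1 to 2 with 1 array left out, and over these settings 0.106% to 1.49% of all genes were called. With the replicate block Chrna4 at 12 weeks had an adjusted p of 0.0578, and no other member call changed. The count of 1 for the difference of the knockout effect became 0 with slide as a fixed block and with the mean of a gene's probes, and 0 to 5 (0.0377% to 17.8% of all genes) with 1 array left out. With 1 array left out the counts were 0 to 1 (0.291% to 0.989%) for the knockout at 6 weeks and 0 to 5 (0.0226% to 28.0%) for age in the knockout, and the counts of 5 with 1 array left out come from the fit without replicate 3 of the 6-week knockout. The causes were not tested. Slide 1 alone gives no value for comparisons with the 12-week knockout, and fitting only the groups compared was not applied to the difference between ages. With 3 mice a group, a comparison that did not pass does not show that a difference is absent. The values within its confidence interval remain possible.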

Other observations

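Genes near Chrm1 on chromosome 19 were read for the same pattern, after the values of Chrm1 had been seen. Of 324 other genes tested within 5 Mb of the brighter Chrm1 probe, 35 (10.9%) had the 3 arrays of the 12-week wild type below the other 9, against 3.69% of 26170 genes elsewhere. Age in the wild type was called for 3 of the 324 (0.926%), against 0.63% elsewhere, and these were Cybasc3 (-0.63 ± 0.12), AW112010 (0.71 ± 0.13) and Neat1 (0.60 ± 0.10), a long noncoding RNA of nuclear paraspeckles. No cause was tested.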
